A study of Mus musculus with 8 samples.

Results

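Messenger RNA of mouse retinal organoids was compared between 24 h of dTAG-13 and no treatment, locus by locus. All cells were of the Rx:GFP line, with FKBP12F36V-HA joined to the C-terminus of METTL3 from both endogenous Mettl3 alleles, so the untreated organoids carried the tagged enzyme too. Treated organoids received 125 nM dTAG-13 from day 5, and both groups were collected together at day 6. The labels mark the 0 h samples as not treated and do not say whether they received solvent. An untagged line given dTAG-13 was not analysed here, so effects of the compound and of losing METTL3 cannot be told apart. The medium was GMEM with KSR and an additive written AGN at 0.1 µM, whose full name the labels do not give. Each group had 2 samples, 4 of the 8 in the series, and polyadenylated RNA was sequenced as read pairs. Loci were kept when they carried a single gene name used once, an OK status at both times, at least 1 FPKM (fragments per kilobase of transcript, scaled for depth) at either time and at least 10 estimated counts at either time. Of 35541 loci, 11322 passed, and these held 91.3% of the estimated counts at 0 h and 92.0% at 24 h. At the edge of the filter, Olfml3 was inside with 1.00 FPKM as its higher value and Ecm1 outside at 0.999929, while Gm10320 was inside with 10.3 estimated counts and Wdr27 outside with 9.50.

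METTL3 is the catalytic subunit of the complex that writes N6-methyladenosine (m6A) on messenger RNA while it is being made. The mark is read by YTH-domain proteins, some of which lead the transcript to decay, and it lies mostly in long internal exons, near stop codons and in transcripts with few exon junctions, because exon junction complexes keep the writer away from the neighbourhood of splice sites. FKBP12F36V is a degron tag: dTAG-13 bridges it to a ubiquitin ligase and the tagged protein is degraded. In early eye development, eye field transcription factors such as RAX, LHX2, SIX6 and PAX6 set up the optic vesicle, and retinoic acid made by its cells patterns the eye along its dorsal to ventral axis.

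The authors pooled both samples of a time into 1 value, so spread between samples is not visible, no test across samples exists, and the error of each value is the interval deposited with it, given in parentheses below. A locus is said to have risen or fallen when the FPKM ratio, after adding 0.1 to each value, was 1.5-fold or more and the 2 intervals were separate. By this rule 462 of the 11322 loci (4.08%) rose and 177 (1.56%) fell, and these shares are the background for every gene group below. Risen loci were 72.3% of those that changed. The median log2 ratio of 24 h over 0 h across all loci was 0.01, and 51.4% of loci lay above 0. Changes were mostly modest: 147 loci rose and 64 fell at least 2-fold, and 2 rose and 10 fell at least 4-fold. Estimated counts moved the same way by at least 1.5-fold for 455 of the risen and 171 of the fallen loci. Summed counts were 32097242 at 0 h and 31361518 at 24 h, and the median coefficient of variation of a count was 10.6% at both times.

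The organoids expressed the genes that define a neural retina progenitor. Of 8 such markers, 7 were measured in single-name loci (Sox2 was not), and all 7 were expressed at both times. Pigment epithelium markers were partly present, with Mitf, Dct, Pmel and Otx2 expressed and Tyr and Rpe65 listed at 0 in untreated organoids. Markers of undifferentiated pluripotent cells were also present, with all 6 measured and a summed level of 308 FPKM at 0 h and 199 at 24 h. Most of that sum was Dppa5a, at 200.4 and 109 FPKM. Of the 6 markers, 5 had a ratio below 0 and 2 fell, while Zfp42 went from 20.1 to 22.8 FPKM without a call. Ptprc, Hbb-bt, Hba-a1, Krt5 and Krt14, which mark blood and stratified epidermis, were at 0 at both times. The simple epithelium keratins Krt8 and Krt18 were present, the first falling from 21.02 to 12.4 FPKM and the second at 23.8 to 17.3 FPKM without a call. Summed levels at 0 h and 24 h were 3.28 and 4.23 FPKM for 4 mesoderm markers and 4.15 and 5.82 FPKM for 5 endoderm markers. They were 25.9 and 18.3 FPKM for 3 endothelium markers. Most of that was Kdr, at 21.9 and 15.7 FPKM, while Cdh5 was at 0.448 and 0.315 FPKM. The 4 measured telencephalon markers summed to 21.9 and 22.35 FPKM, mostly Emx2 at 20.8 and 21.6 FPKM. None of the markers in these groups was called. The part of these cells in the results below was not tested. Mettl3 itself was at 19.4 FPKM (10.6 to 28.3) untreated and 17.01 (8.50 to 25.5) after 24 h, with overlapping intervals. Only the protein is a target of the degron, and the locus overlaps the expressed genes Rab2b and Tox4, so this value does not test the depletion.

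The largest falls were in genes of unrelated functions. Tac1, which encodes the precursor of the neuropeptide substance P, was at 12.1 FPKM (8.70 to 15.5) untreated and 1.08 (0.196 to 1.96) after 24 h, and fell by 3.37 on the log2 scale. Slc7a11 (chromosome 3, 49892526 to 50443614, GRCm38), the cystine importer, was at 2.44 FPKM (1.83 to 3.04) untreated and 0.293 (0.130 to 0.455) after 24 h, and fell by 2.69. Trp53cor1, a long noncoding RNA induced by p53, went from 1.78 to 0.355 FPKM, and Crhbp, a secreted protein that binds corticotropin-releasing hormone, went from 2.02 to 0.492 FPKM. These are among the 12 lowest loci whose estimated counts also fell at least 1.5-fold. The others of the 12 were Aldh1a1, described below, Rnft2, Mylpf, Iffo2 and the little-studied Gm10451, C030018K13Rik, Prox2os and A030001D20Rik. For Mylpf the estimated counts fell by 0.761 on the log2 scale, less than its FPKM (-1.85). The value of Iffo2 is uncertain because its locus overlaps Aldh4a1, Gm21969, Tas1r2 and a further locus listed as Iffo2.

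The largest rises were from low levels. Rab33a, a small GTPase of vesicle traffic, was at 0.770 FPKM (0.295 to 1.25) untreated and 3.86 (2.65 to 5.06) after 24 h, a log2 ratio of 2.19. Lingo3, a leucine-rich repeat membrane protein, was at 0.724 FPKM (0.386 to 1.06) untreated and 3.48 (2.62 to 4.34) after 24 h, a ratio of 2.12. Lsm10, a subunit of the U7 particle that processes histone messages, started higher and went from 15.8 to 50.02 FPKM. Fkbpl went from 7.33 to 25.8 FPKM, Hpdl from 0.749 to 2.56 FPKM, and the sugar transferase B3galt4 from 0.968 to 3.62 FPKM. Of the 12 highest loci chosen in the same way, Lingo3, B3galt4, Fkbpl, Lsm10, Hpdl, Mblac1 and Eras have their whole coding sequence in a single exon. This property is taken up below. The locus of Eras overlaps Pcsk1n. The intervals of each named gene are separate at the 2 times, as the rule requires.

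In absolute level the order was different. Slc2a3, the glucose transporter GLUT3, gained the most, from 273 (219 to 328) untreated to 461 FPKM (369.9 to 551) after 24 h. Next came Apex1, an endonuclease of base excision repair, from 181 to 335 FPKM in a locus that overlaps the expressed gene Tmem55b, and Nxt1, a cofactor of messenger RNA export, from 59.4 (47.3 to 71.5) untreated to 173 FPKM (139 to 206) after 24 h. Among losses, Ckb, the brain creatine kinase, went from 185 to 90.4 FPKM, although its locus overlaps the expressed gene Trmt61a. Dppa5a, an RNA-binding protein of pluripotent cells, went from 200.4 to 109 FPKM. Prpf19, a splicing factor, went from 141 to 76.8 FPKM, and H2afx, the histone variant phosphorylated at DNA breaks, from 129 to 71.6 FPKM.

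**Figure D1:**
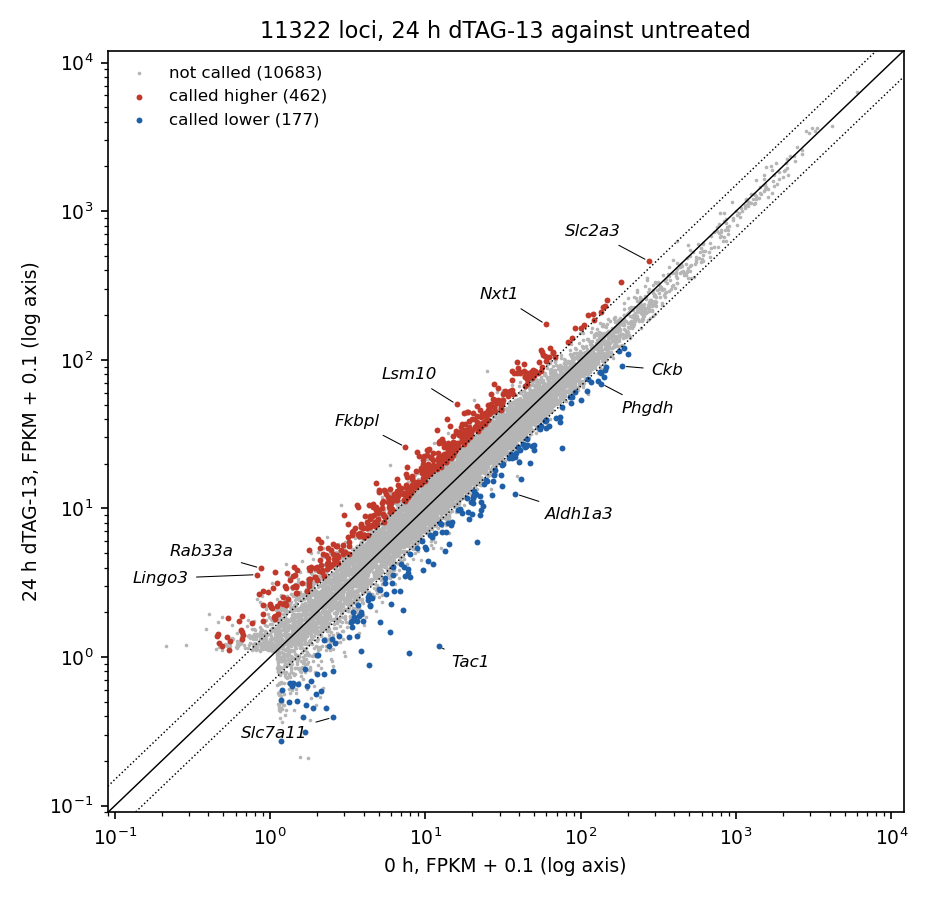
FPKM at 0 h (x axis) and at 24 h of dTAG-13 (y axis) for the 11322 loci, both with 0.1 added and on log axes, where the solid line marks equal values and the dotted lines the 1.5-fold limits. The 462 risen loci (red) outnumber the 177 fallen ones (blue), and Tac1 lies far below the line.

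Retinoic acid genes fell at successive steps of the pathway. Of 15 measured genes, 4 fell (26.7%, against 1.56% of all loci) and 0 rose, and the median log2 ratio was -0.45. Both main synthesis enzymes of the eye were among them. Aldh1a3 (chromosome 7, 66390890 to 66427517, GRCm38), which makes retinoic acid from retinaldehyde in the ventral eye, was at 37.9 FPKM (30.3 to 45.4) untreated and 12.4 (9.50 to 15.4) after 24 h and fell by 1.60 on the log2 scale. Aldh1a1 (chromosome 19, 20492715 to 20643465), the enzyme of the dorsal eye, was at 1.51 FPKM (0.950 to 2.08) untreated and 0.292 (0.000389 to 0.585) after 24 h and fell by 2.04 from a low level. Both enzymes were thus lower at 24 h, with separate intervals. Both groups were grown with AGN, and whether it acts on this pathway was not tested.

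Uptake and binding genes fell as well. Stra6, the membrane receptor that brings retinol into the cell, was at 19.9 FPKM (13.7 to 26.1) untreated and 9.11 (6.25 to 11.97) after 24 h. Crabp1, which binds retinoic acid in the cytoplasm, was at 190.3 FPKM (153 to 227) untreated and 120.1 (96.3 to 144) after 24 h. The related Crabp2 stayed close to its level, at 449.6 FPKM (364 to 535) untreated and 429 (347 to 510.5) after 24 h. Rdh10, which makes retinaldehyde, was at 7.95 FPKM (6.26 to 9.64) untreated and 5.80 (4.52 to 7.09) after 24 h, with overlapping intervals. Receptors did not follow a single direction: the log2 ratio was 0.53 for Rara, 0.19 for Rarg, 0.46 for Rxra, -0.26 for Rxrb and -0.04 for Rxrg, none of them called. Cyp26a1, which degrades retinoic acid and is one of its targets, was at 2.35 FPKM (1.63 to 3.07) untreated and 2.09 (1.43 to 2.76) after 24 h. The organoids are bulk samples, so fewer cells of a type and less RNA per cell cannot be told apart here or in any group below.

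Cytosolic aminoacyl-tRNA synthetases, the enzymes that load transfer RNAs with amino acids, moved down as a group. All 18 measured genes had a ratio below 0, 6 of them fell (33.3%, against 1.56%), 0 rose, and the median was -0.55. Iars, which loads isoleucine, was at 86.9 FPKM (70.3 to 103) untreated and 51.03 (39.8 to 62.3) after 24 h. Gars, which loads glycine, was at 143 FPKM (116 to 170.1) untreated and 84.7 (68.5 to 101) after 24 h. Farsa, Lars and Eprs, for phenylalanine, leucine, and glutamate with proline, went from 45.1 to 29.4 FPKM, 85.5 to 56.04 FPKM and 111 to 73.8 FPKM. Mars, for methionine, went from 54.5 to 33.9 FPKM, but its locus overlaps Ddit3 and AC144852.1. The smallest ratio was that of Hars, at -0.15, whose locus overlaps Hars2. Ratios across the group thus lay between -0.77 (Iars) and -0.15 (Hars), and 12 of the 18 genes were not called.

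Many synthetase genes are targets of ATF4, the transcription factor that raises amino acid supply when it is short, and part of the ATF4 and amino acid stress genes fell too. Of 31 measured, 7 fell (22.6%), 0 rose, and the median was -0.32. The 7 are transporters and synthesis enzymes with 1 exception. Among transporters, the cationic amino acid carriers Slc7a3 and Slc7a1 were at 26.9 FPKM (21.4 to 32.3) untreated and 12.3 (9.44 to 15.1) after 24 h, and at 14.8 FPKM (11.7 to 17.9) untreated and 8.01 (6.002 to 10.02) after 24 h, beside Slc7a11 above. Phgdh, the first enzyme of serine synthesis, was at 135 FPKM (106 to 164) untreated and 69.04 (54.6 to 83.5) after 24 h. Asns, which makes asparagine, was at 135 FPKM (109 to 162) untreated and 81.8 (64.96 to 98.5) after 24 h, and Gpt2, a mitochondrial alanine transaminase, went from 24.6 to 15.4 FPKM. Herpud1, a membrane protein of endoplasmic reticulum quality control, went from 22.3 to 11.97 FPKM.

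Not every gene of that kind was lower. Atf4 itself was at 90.8 FPKM (73.3 to 108) untreated and 76.6 (61.7 to 91.5) after 24 h, with overlapping intervals. Chac1, Trib3 and Nupr1, which are targets induced by stress, had log2 ratios of 0.01, -0.13 and 0.04, and Slc38a2 and Aldh18a1 had -0.11 and -0.01. Psat1 and Shmt2, the serine and glycine enzymes downstream of Phgdh, went from 180.1 to 124 FPKM and 89.2 to 59.5 FPKM without being called. The locus of Shmt2 overlaps Ndufa4l2. The fallen genes of the list thus serve import, synthesis and protein quality control, while its stress markers Chac1, Trib3 and Nupr1 lay near 0.

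ATF4 binds C/EBP-ATF composite sites, and the letters TGATGNAA were searched on both strands in RefSeq promoters (GRCm38.p6, 250 bases before to 50 after the start). A promoter was present for 28 of the 31 genes, and 10 of these (35.7%) held a match. The share was 2.61% for the 9025 measured loci with a promoter and 4.51% for all 27025 genes with a promoter. The list was chosen as ATF4 and amino acid stress genes, so its share describes the list and not the change at 24 h. Of the 10 listed genes with a match, 3 fell. A promoter was present for 6 of the 7 fallen genes, and 3 of these (50%) held a match. The median ratio was -0.19 with a match and -0.34 without. A link between match and ratio was not tested. For synthetases only 12 of 18 had a promoter, too few for such a share. Their median was -0.65 in the 4 with a match and -0.55 in the 8 without. The matches upstream of fallen genes are shown as examples. Capitals mark the match, on the strand of the gene, with its own orientation stated.
Asns (chr6:7693213-7693244, minus strand, 23 bases before the start, same orientation): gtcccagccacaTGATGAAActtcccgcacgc
Gars (chr6:55037959-55037990, plus strand, 30 bases before, opposite orientation): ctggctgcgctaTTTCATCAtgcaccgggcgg
Herpud1 (chr8:94386305-94386336, plus strand, 112 bases before, opposite orientation): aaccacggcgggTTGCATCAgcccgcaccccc
Slc7a11 (chr3:50443660-50443691, minus strand, 66 bases before, same orientation): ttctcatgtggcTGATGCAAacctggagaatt
A match of the fallen synthetase Iars lies after its start and is not shown. A second Slc7a11 match lies 47 bases before the start in the opposite orientation. A match of letters is a description of the sequence and not a measured binding site.

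Genes of the endoplasmic reticulum folding machinery shared the direction. Of 21 measured, 19 were below 0, with a median of -0.37, and 2 fell (9.52%). These were Sdf2l1, at 38.4 FPKM (30.5 to 46.4) untreated and 23.6 (18.4 to 28.7) after 24 h, and Creld2, from 42.9 to 26.5 FPKM, both ER proteins induced by the unfolded protein response. None of the 21 rose.

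**Figure D2:**
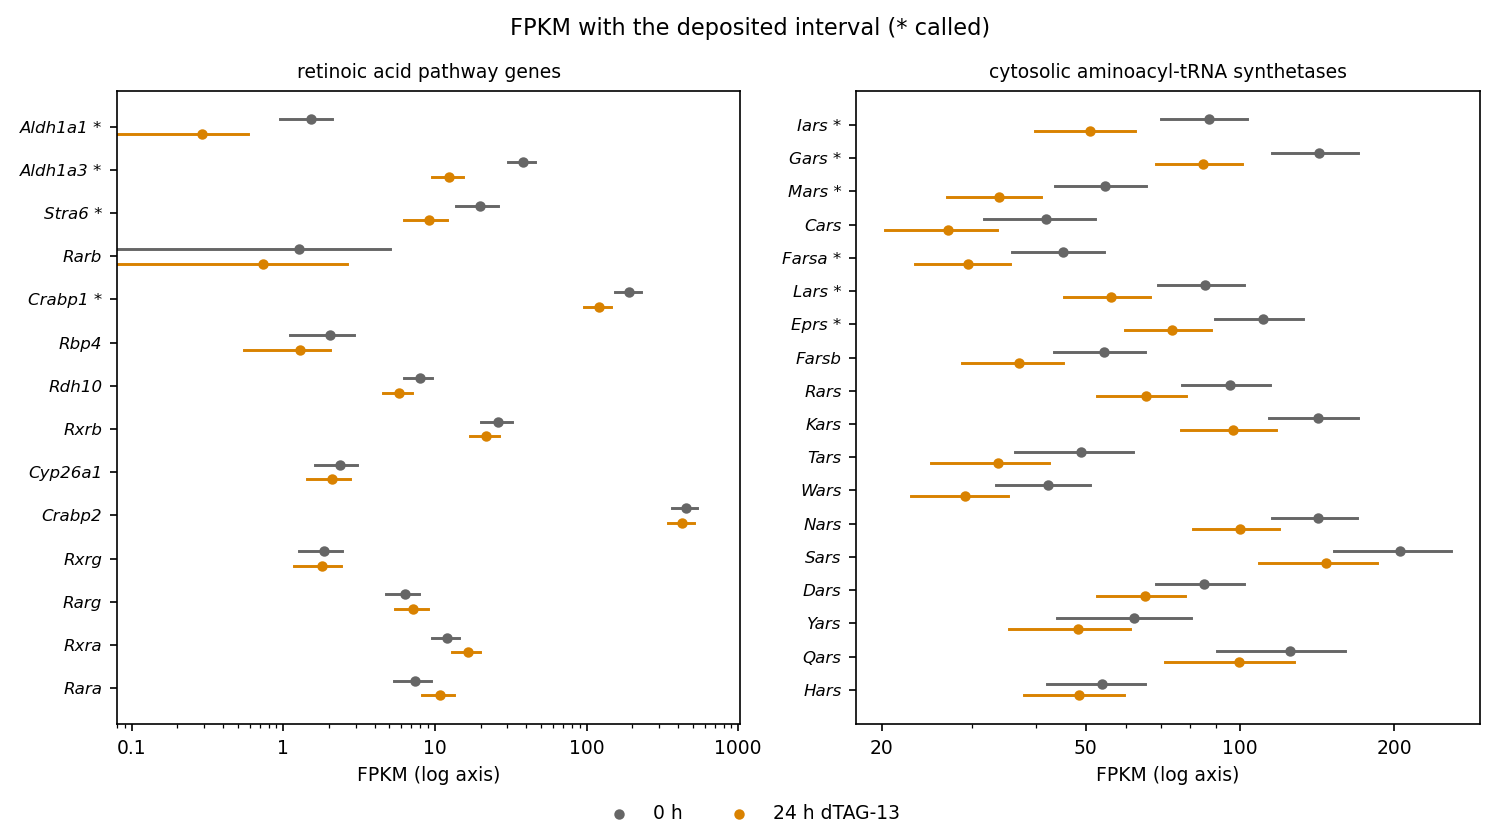
FPKM at 0 h (grey) and at 24 h (orange) on a log axis for the retinoic acid pathway genes reported here (left) and cytosolic aminoacyl-tRNA synthetases (right), with the deposited interval as a line, an asterisk for called genes, and intervals that run off the axis ending at its left side. Aldh1a3, Stra6 and Crabp1 are separated from their 0 h intervals, and all 18 synthetases lie to the left of their 0 h value.

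Large protein complexes of housekeeping function were also slightly lower, mostly without calls. The 34 proteasome subunits had a median of -0.32, with 29 below 0. Psmd8 fell from 132 to 82.96 FPKM while Psmd7 rose from 122 to 185 FPKM. All 7 subunits of the chaperonin CCT, which folds actin and tubulin, were below 0, with a median of -0.34 and 0 calls. Of 73 respiratory chain and ATP synthase subunits, 54 were below 0 (median -0.21), Sdhb and Cyc1 fell from 75.2 to 47.9 FPKM and 87.5 to 55.7 FPKM, and Uqcrfs1 rose from 88.2 to 139 FPKM.

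RNA-binding and translation genes gave a similar picture. The 22 hnRNP genes had a median of -0.25, 18 below 0 and 0 calls, and the 20 SR splicing factors one of -0.15 and 0 calls. Among 45 translation factors (median -0.21), Eif3g, a subunit of the scanning complex, fell from 176 to 114 FPKM. Eif2b3, a subunit of the exchange factor for eIF2, fell from 27.3 to 15.3 FPKM, and Eif1a rose from 91.4 to 164 FPKM. The 77 cytosolic ribosomal proteins had a median of -0.06 and 0 calls, so they stayed nearer to 0 than the synthetases that supply them.

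Cell cycle genes changed little apart from a few members, and part of the p53 targets fell. Of 26 p53 targets, 3 fell (11.5%, against 1.56%) and 0 rose. In this list 18 genes were below 0, with a median of -0.19. The fallen targets were Trp53cor1, given above, Cdkn1a and Ccng1. The kinase inhibitor Cdkn1a was at 48.2 FPKM (37.5 to 58.97) untreated and 26.4 (20.4 to 32.4) after 24 h. Ccng1, a cyclin G induced by p53, was at 116 FPKM (93.7 to 137) untreated and 70.3 (56.9 to 83.8) after 24 h. Trp53, the gene of p53 itself, was called lower too. Other targets of the list were not called, among them Mdm2 with a ratio of -0.05 and Btg2 with 0.02. Of 40 DNA replication genes, 32 were below 0 (median -0.18). Tk1, thymidine kinase, rose from 42.9 to 93.5 FPKM and Fen1, the flap endonuclease, from 63.3 to 120.1 FPKM. These 2 of 40 are a share near the background, and both loci overlap other expressed genes. Among 37 mitosis genes, Cdc20, an activator of the anaphase-promoting complex, fell from 109.7 to 61.9 FPKM, in a locus that overlaps Elovl1.

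Part of the eye field genes rose, and most pluripotency genes had ratios below 0 with few calls. Of 18 eye field transcription factors, 5 rose (27.8%, against 4.08%), 0 fell, and the median was 0.40. Rax (chromosome 18, 65928277 to 65939787, GRCm38), the earliest marker of the eye field, was at 49.9 FPKM (39.9 to 59.9) untreated and 78.6 (63.3 to 93.98) after 24 h. Lhx2, needed for the optic vesicle, was at 143 FPKM (113 to 172) untreated and 231 (184 to 278) after 24 h. Tbx2 and Tbx3, T-box factors of the dorsal retina, were lower in level and were at 2.35 FPKM (1.75 to 2.96) untreated and 5.18 (4.03 to 6.34) after 24 h, and at 2.83 FPKM (2.05 to 3.62) untreated and 5.61 (4.24 to 6.99) after 24 h. Mab21l1, an eye gene downstream of Pax6, went from 56.2 to 112 FPKM, but lies within the expressed gene Nbea, and its paralog Mab21l2 went from 30.1 to 46.6 FPKM without being called.

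The rest of that list was mixed. Six6, Otx2 and Six3 had ratios of 0.46, 0.41 and 0.33, and Pax6 was at 126 FPKM (95.96 to 156) untreated and 130.5 (100.4 to 161) after 24 h. Vax1 and Pax2 of the ventral eye and optic stalk had ratios of -0.29 and -0.26. Neither was called. Beside these values, the 4 expressed pigment epithelium markers had 0 calls, although Pmel, a melanosome protein, went from 28.9 (13.3 to 44.5) untreated to 60.3 FPKM (35.6 to 85.04) after 24 h. Their part in the eye field result was not tested.

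Of 24 pluripotency genes, 18 were below 0, with a median of -0.16, and 2 fell (8.33%, against 1.56%). Tdgf1, a co-receptor of Nodal, was at 22.8 FPKM (17.9 to 27.6) untreated and 10.9 (8.49 to 13.4) after 24 h, and Dppa5a fell as given above, while Tbx3 belongs to this list too and rose. Pou5f1 and Nanog, the core factors, went from 34.8 to 28.8 FPKM and 20.8 to 18.9 FPKM, with overlapping intervals. The Nodal antagonists Lefty1 and Lefty2 went from 2.25 to 1.22 FPKM and 1.77 to 0.919 FPKM without being called. The 3 calls among 24 genes were thus 2 falls and the rise of Tbx3, which is counted in both lists.

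SOX factors leaned upward, as did the Notch pathway, which maintains neural progenitors. All 12 measured SOX genes had a ratio above 0 (median 0.26), and Sox11 rose from 53.3 (43.1 to 63.6) untreated to 81.7 FPKM (66.3 to 97.2) after 24 h. Sox21 rose from 9.47 to 15.97 FPKM in a locus that overlaps Gm4675, and Sox3 went from 43.4 to 64.6 FPKM without a call. The highest SOX ratio, 0.77, belonged to the endoderm marker Sox17, which had overlapping intervals. Of 21 Notch pathway genes, 17 were above 0 (median 0.27). Hey1, a repressor induced by Notch, was at 4.26 FPKM (3.17 to 5.36) untreated and 8.41 (6.51 to 10.3) after 24 h, and Maml1, the coactivator of the Notch complex, went from 15.2 to 26.1 FPKM. The receptors Notch1, Notch2 and Notch3 had ratios of 0.40, 0.34 and 0.52, and the target Hes5 had 0.53, all uncalled.

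Signals outside the cell changed in single members. In the Wnt list of 38 genes the median was 0.01, and its sign turned under 4 of the settings tried. Dkk3, a secreted Dickkopf-family protein, was at 30.9 FPKM (24.9 to 36.9) untreated and 14.01 (11.2 to 16.8) after 24 h. Wnt8b, a ligand of the forebrain, was at 4.19 FPKM (3.23 to 5.15) untreated and 2.31 (1.72 to 2.91) after 24 h, and Lgr5, an R-spondin receptor and Wnt target, at 4.19 FPKM (3.14 to 5.24) untreated and 2.42 (1.74 to 3.10) after 24 h. These 3 fell (7.89%), 0 rose, and Axin2, the widely used Wnt target, was at 5.34 FPKM (3.51 to 7.17) untreated and 4.22 (3.04 to 5.41) after 24 h without a call. Of 30 BMP and TGF-beta genes, 4 rose (13.3%) and 0 fell. The BMP antagonist Nog was at 1.67 FPKM (1.08 to 2.25) untreated and 3.23 (2.31 to 4.15) after 24 h, and Bambi, a decoy receptor, at 1.21 FPKM (0.887 to 1.53) untreated and 2.35 (1.81 to 2.89) after 24 h. Gdf11, a ligand that limits progenitor output in the retina, went from 13.6 to 20.5 FPKM, and Acvr2a, an activin receptor, from 13.8 to 24.3 FPKM in a locus that overlaps Mbd5 and Orc4. The BMP targets Id1, Id2 and Id3 had ratios of 0.15, 0.23 and 0.12.

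Guidance and adhesion genes were called in both directions. Among 43 ephrin and semaphorin guidance genes, 2 rose and 2 fell (4.65% each), with the rises near the background of 4.08% and the falls above that of 1.56%. Sema6b rose from 1.25 to 3.22 FPKM and Efna2 from 6.16 to 11.2 FPKM. Dcc, the netrin receptor, fell from 3.26 to 1.496 FPKM, and Epha3 from 4.23 to 2.52 FPKM. Of 24 cadherins and protocadherins 2 rose and 1 fell. Cdh11 rose from 44.8 (35.1 to 54.6) untreated to 73.6 FPKM (58.6 to 88.6) after 24 h, Dchs1 rose from 3.67 to 6.50 FPKM, and Cdh20 fell from 12.7 (10.2 to 15.2) untreated to 6.82 FPKM (5.38 to 8.27) after 24 h. Col9a1, a collagen of the vitreous and the ciliary region of the eye, fell from 50.04 (40.4 to 59.7) untreated to 26.5 FPKM (21.3 to 31.7) after 24 h, while Col27a1 and Col6a1 rose from 2.45 to 4.80 FPKM and 0.545 to 1.43 FPKM.

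Targets of hypoxia-inducible factors rose in part. Of 28 measured outside glycolysis, 6 rose (21.4%, against 4.08%), 0 fell, and the median was 0.30. Ppp1r3c, which targets a phosphatase to glycogen, was at 3.55 FPKM (2.68 to 4.42) untreated and 10.5 (8.26 to 12.7) after 24 h. Adm, the peptide adrenomedullin, was at 2.01 FPKM (1.28 to 2.75) untreated and 5.82 (4.29 to 7.35) after 24 h, and Bhlhe40, a repressor of the clock, at 9.51 FPKM (7.07 to 11.9) untreated and 21.1 (15.8 to 26.4) after 24 h. Cited2 and Ier3 went from 45.2 to 79.9 FPKM and 6.42 to 11.4 FPKM, and Ddit4, an inhibitor of mTORC1, from 139.9 to 227 FPKM, in a locus that overlaps Anapc16 and Ascc1. Other targets that are often used as readouts were not higher: Vegfa had a ratio of -0.04, Car9 of -0.04, Bnip3l of -0.34 and Ndrg1 of -0.28. Glycolysis genes had a median of -0.01 over 22 genes. Their 2 risen members are transporters, Slc2a3, given above, and the lactate exporter Slc16a3, at 120.2 FPKM (93.5 to 147) untreated and 202 (158 to 247) after 24 h.

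Cholesterol synthesis genes shifted together by a small amount. Of 22 genes, 21 were above 0, with a median of 0.34, and 3 rose. These catalyse late steps: Dhcr7, the last enzyme, was at 28.9 FPKM (21.6 to 36.3) untreated and 51.3 (38.1 to 64.4) after 24 h, Msmo1, a sterol oxidase, at 61.99 FPKM (48.8 to 75.2) untreated and 104 (81.9 to 127) after 24 h, and Nsdhl, a sterol dehydrogenase, at 18.99 FPKM (15.1 to 22.9) untreated and 31.1 (24.9 to 37.3) after 24 h. The upstream Hmgcs1 went from 149.8 to 188 FPKM without a call. Srebf2, the factor that drives the pathway, was the member below 0, with a ratio of -0.0034.

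Genes of the m6A system itself rose in 4 of 18 cases (22.2%), with 0 falling. In the writer complex, Wtap, the adaptor of METTL3, was at 57.1 FPKM (45.3 to 68.8) untreated and 108 (86.4 to 130.0) after 24 h, and Cbll1, an associated ubiquitin ligase, at 13.4 FPKM (10.7 to 16.2) untreated and 22.3 (17.8 to 26.8) after 24 h. Mettl14, the partner of METTL3, was at 23.4 FPKM (18.6 to 28.2) untreated and 22.4 (17.5 to 27.2) after 24 h and was not called. Of the readers, Ythdf2 was at 42.8 FPKM (33.2 to 52.3) untreated and 83.8 (66.1 to 101) after 24 h, Ythdf1 at 44.96 FPKM (36.1 to 53.8) untreated and 81.2 (65.6 to 96.7) after 24 h, and Ythdf3 at 46.5 FPKM (37.6 to 55.4) untreated and 55.4 (44.7 to 66.1) after 24 h, the last without a call. The erasers Fto and Alkbh5 had ratios of 0.20 and 0.28, and the readers of another kind, Igf2bp2 and Igf2bp3, had -0.31 and -0.21.

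**Figure D3:**
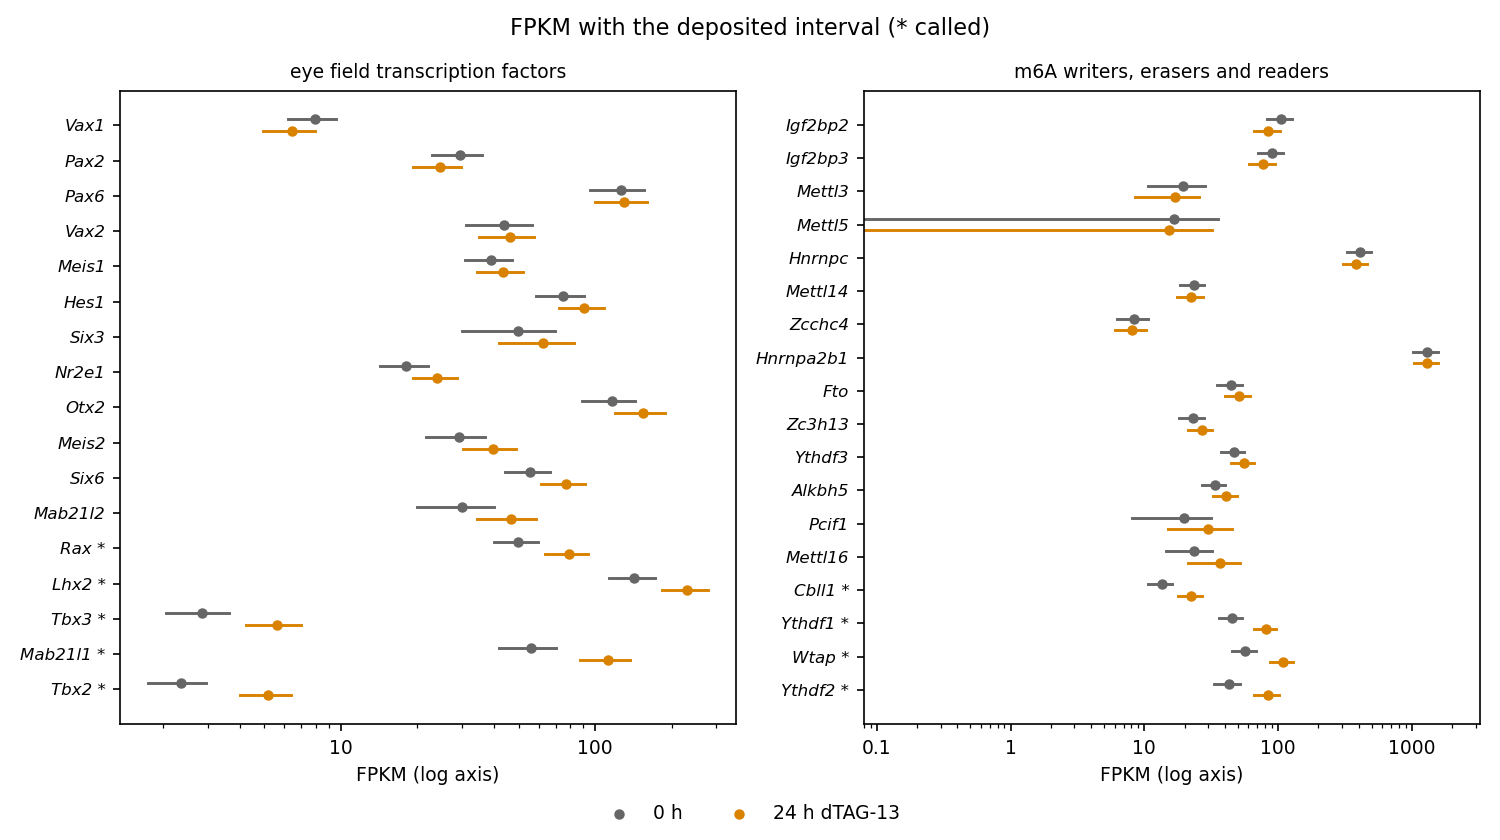
FPKM at 0 h (grey) and at 24 h (orange) on a log axis for the eye field transcription factors reported here (left) and m6A genes (right), with the deposited interval as a line, an asterisk for called genes, and intervals that run off the axis ending at its left side. The 5 called eye field genes and the 4 called m6A genes lie to the right of their 0 h intervals, and Mettl3 overlaps its own.

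Many kelch and BTB adaptor genes rose. Of 53 genes with kelch repeats or a BTB domain, most of them substrate adaptors of cullin ubiquitin ligases, 13 rose (24.5%, against 4.08%) and 1 fell. Klhl36 went from 2.27 (1.52 to 3.02) untreated to 5.33 FPKM (3.85 to 6.82) after 24 h, and Kbtbd6 from 2.10 (1.53 to 2.67) untreated to 4.84 FPKM (3.73 to 5.95) after 24 h. Btbd3, which shapes dendrites, went from 12.6 (10.1 to 15.1) untreated to 27.9 FPKM (21.9 to 33.9) after 24 h, and Klhl9, an adaptor with a part in mitosis, from 32.5 to 61.5 FPKM. The member that fell, Klhl14, went from 3.62 to 1.78 FPKM and overlaps 4930426D05Rik. Of 50 F-box genes, the adaptors of another cullin ligase, 3 rose, Fbxl8, Fbxo30 and Fbxl7, a share near the background.

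Zinc finger families leaned the same way with fewer calls. The 34 ZBTB factors had a median of 0.29 with 27 above 0, and Zbtb3, Zbtb25 and Zbtb1 rose, the first from 2.19 to 4.75 FPKM. Of 277 Zfp-numbered genes, 201 were above 0 (median 0.21), 11 rose and 5 fell, shares of 3.97% and 1.80% near the background. Zfp189 rose the most, from 6.51 to 14.3 FPKM, and Zfp112 fell the most, from 1.30 to 0.573 FPKM.

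In several complexes and families a few members were called. Of 28 Mediator subunits (median -0.08), 3 rose (10.7%): Med18 went from 8.97 (6.58 to 11.4) untreated to 22.4 FPKM (17.7 to 27.2) after 24 h, Med7 from 35.8 to 72.5 FPKM and Med26 from 7.09 to 12.4 FPKM, the last overlapping Gm17435. Of 71 mitochondrial ribosomal proteins (median 0.08), 4 rose (5.63%), a share near the background. Mrpl43 went from 27.4 (21.6 to 33.2) untreated to 68.2 FPKM (54.7 to 81.7) after 24 h and Mrps2 from 35.7 (28.7 to 42.7) untreated to 84.1 FPKM (67.95 to 100.3) after 24 h. Mrpl46 and Mrpl16 also rose, from 18.4 to 44.2 FPKM and 26.2 to 50.5 FPKM, in loci that overlap Mrps11 and Stx3. Of 24 heat shock genes, 3 rose (12.5%, against 4.08%) and 1 fell (4.17%, against 1.56%). The co-chaperones Dnajb4, Dnajb1 and Bag3 rose, from 10.04 to 18.9 FPKM, 24.6 to 39.1 FPKM and 7.75 to 12.2 FPKM. The small heat shock protein Hspb1 fell, from 22.4 (17.4 to 27.5) untreated to 8.96 FPKM (6.52 to 11.4) after 24 h. Of 19 clock genes, Nfil3 and Bhlhe40 rose and Arntl and Rorb fell (10.5% in each direction). Arntl, which encodes BMAL1, went from 3.27 (2.42 to 4.11) untreated to 1.63 FPKM (1.14 to 2.12) after 24 h.

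Grouping loci by the letters of their symbol gave 130 stems with at least 10 loci. The highest medians belonged to Gpr (0.47, 18 loci), Zkscan (0.45), Ppm (0.36), Hist (0.32), Lrp (0.31), Sema (0.31), Zbtb (0.29) and Mfsd (0.28). The lowest belonged to Mcm (-0.31, 10 loci), Aldh (-0.27, 13 loci), Ap (-0.25), Sec (-0.25), Psmd (-0.24), Cyb (-0.23), Sf (-0.21) and Srsf (-0.21). In the Aldh stem Aldh1a1, Aldh1a3, Aldh1a7 and Aldh16a1, whose locus overlaps Pih1d1, fell while Aldh1b1, a mitochondrial enzyme with a single coding exon, rose from 2.004 to 5.32 FPKM.

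**Figure D4:**
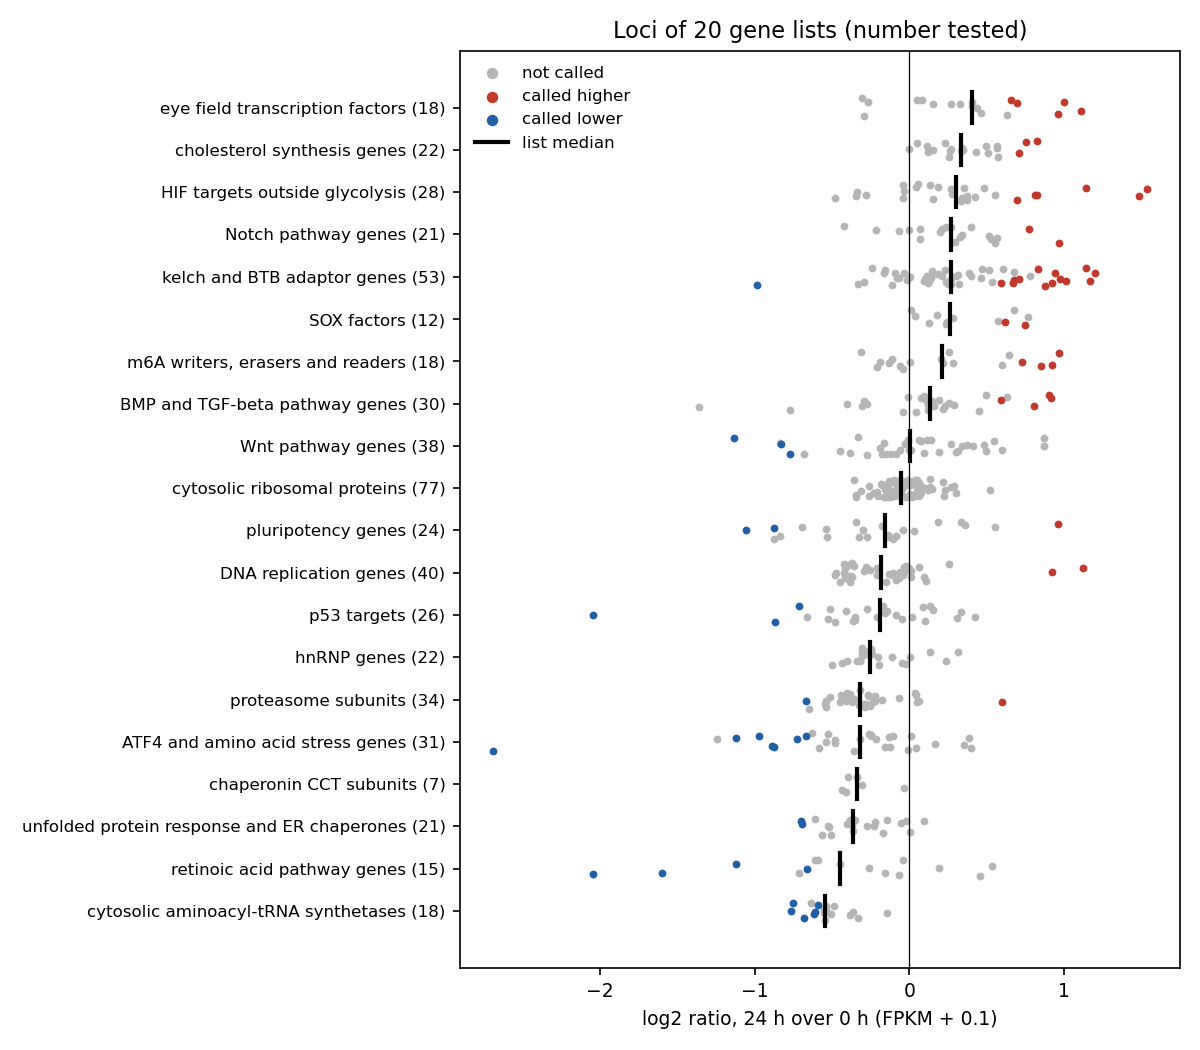
Log2 ratio of 24 h over 0 h (x axis, FPKM with 0.1 added) of every measured locus in 20 gene lists (y axis), with risen loci in red, fallen ones in blue, others in grey and the list median as a black bar. Medians run from -0.55 for the synthetases to 0.40 for the eye field genes, and the called members of a list mostly share 1 direction.

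Risen loci were set apart by having few coding exons. The number of coding exons was known for 10943 loci from GENCODE M21. Of 646 loci whose coding sequence lies in 1 exon, 133 rose (20.6%) and 18 fell (2.79%), with a median ratio of 0.37. The share that rose was 13.4% with 2 coding exons, 7.18% with 3 to 4, 3.16% with 5 to 9, 1.09% with 10 to 19 and 0.702% with 20 or more. The share that fell stayed between 1.10% and 1.59% in those 5 classes. Risen loci had a median of 3 coding exons, fallen loci 8 and all loci 9. Leaving out loci that overlap another expressed locus gave 21.9% for 1 coding exon and 0.865% for 20 or more.

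**Figure D5:**
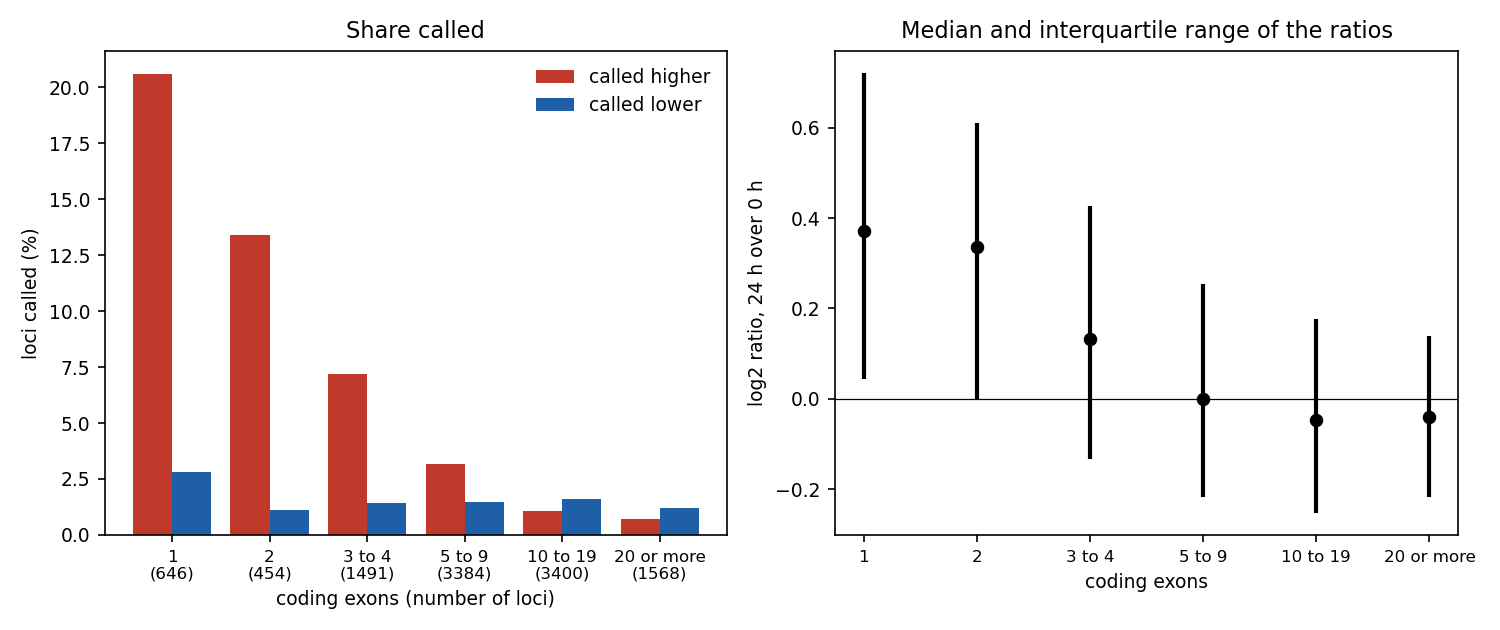
Left, percent of loci that rose (red) and fell (blue) by number of coding exons, with the number of loci in parentheses. Right, the median log2 ratio (points) and the interquartile range of the ratios (lines) for the same classes, which goes from 0.37 with 1 coding exon to -0.04 with 20 or more.

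An intron outside the coding sequence did not remove the rise. Single-coding-exon loci with an intron elsewhere in the transcript rose in 23.5% of 362 cases, and those without any rose in 16.9% of 284. Among loci with 2 or more coding exons, 6.43% rose where the longest internal exon was over 1000 bases and 2.01% where it was at most 200 bases. The share that rose hardly varied with the length of the 3' UTR, at 4.14% with up to 500 bases and 3.80% with over 4000. The median ratio did increase over the 5 classes of 3' UTR length, from -0.04 to 0.07, a narrower span than that over coding exons.

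Lists differ in this property, which bears on how they are read. Loci with at most 4 coding exons rose in 11.6% of 2591 cases and had a median of 0.23, while those with 5 or more rose in 1.86% of 8352 and had a median of -0.03. All 13 risen kelch and BTB genes, all 3 risen ZBTB factors, all 3 risen Mediator subunits, all 3 risen F-box genes and all 4 risen mitochondrial ribosomal proteins have at most 4. Within these lists the members with 5 or more coding exons had 0 rises, and medians of 0.14, 0.06, -0.19, 0.12 and -0.15 in that order. Of their members with at most 4, 54.2%, 13%, 27.3%, 21.4% and 11.8% rose in the same order, against the 11.6% above. The 24 kelch and BTB genes with at most 4 had a median of 0.68, above the 0.23 of all such loci. Both risen SOX genes have a single coding exon, and the 9 of 12 SOX genes with at most 4 had a median of 0.28, near that of all such loci. The HIF targets fall between, with 5 of the 6 risen genes at 4 or fewer and a median of 0.18 for the 19 with more. The 9 HIF targets with at most 4 rose in 55.6% of cases. All 3 risen heat shock genes have at most 4 as well, a class in which 37.5% of 8 rose. Few coding exons did not go with rises in every list. Among members with at most 4, 2% of 50 respiratory chain and ATP synthase subunits and 4.19% of 191 Zfp-numbered genes rose. Of 35 such cytosolic ribosomal proteins and 15 such pluripotency genes, 0 rose.

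In other lists the calls lay among genes with more coding exons. All 4 risen m6A genes and all 3 risen cholesterol genes have 5 or more coding exons, as do both risen Notch genes. Eye field genes had a median of 0.41 in the 9 with up to 4 coding exons and 0.40 in the 9 with more, where 3 rose. The ATF4 list split by exon number in the opposite sense: the 10 genes with up to 4 coding exons had 0 falls and a median of -0.06, and the 21 with more held all 7 falls at a median of -0.53. The Notch medians were 0.43 for the 4 genes with up to 4 coding exons and 0.24 for the 17 with more. All 18 synthetases have 5 or more, at a median of -0.55 against -0.03 for all loci of that class. Of the retinoic acid genes that fell, 3 have 5 or more and 1 has fewer.

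Several small families recur among risen single-coding-exon genes, and the following were picked after their values were seen. Rpp25, Rpp25l and Rpp38, protein subunits of the RNase P and MRP enzymes that process transfer and ribosomal RNA, went from 11.1 to 23.3 FPKM, 39.1 to 87.3 FPKM and 12.1 to 27.7 FPKM. The locus of Rpp25l overlaps other expressed genes. Cdc42ep2, Cdc42ep4 and Cdc42ep5, effectors of the GTPase CDC42, went from 1.19 to 3.55 FPKM, 18.5 to 31.3 FPKM and 3.08 to 7.81 FPKM. Chst1, Chst12 and Chst14, which add sulfate to sugars, went from 1.38 to 2.59 FPKM, 3.77 to 7.71 FPKM and 4.89 to 9.65 FPKM. Insm1, a zinc finger factor of neuronal progenitors, went from 0.562 to 1.78 FPKM, and the neurotrophin Ntf3 from 1.69 to 5.18 FPKM. Exceptions fell: Diras2, a small GTPase, went from 1.87 to 0.464 FPKM, and Slitrk1, a synaptic membrane protein, from 3.10 to 1.26 FPKM. Tmem200a fell from 2.43 to 0.699 FPKM while its estimated counts had a log2 ratio of 0.53, so its direction depends on the unit. The same holds for 2610008E11Rik, which fell, and Tmem63a, which rose, both with more coding exons.

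The core letters of the m6A consensus, GGACT in DNA, were counted in the coding sequences of these genes. No m6A measurement was used here, so a match shows the letters only. Single-coding-exon loci rose in 16.4% of 250 cases with no GGACT, 20.2% of 168 with 1, 23.9% of 176 with 2 to 3 and 30.8% of 52 with 4 or more. Longer coding sequences hold more matches. Among those of 1000 to 2000 bases 11 of 58 rose with none, 22 of 77 with 1 and 29 of 119 with 2 or more, which is not a steady increase. Over all loci with a coding sequence the share went from 3.59% with none to 4.96% with 2 to 3 and 2.69% with 7 or more. The median ratio did increase over these classes, from -0.02 with none to 0.07 with 7 or more. Coding length was not held fixed in this comparison. The last GGACT in the coding sequence of 4 risen genes is shown as an example of where these letters lie. They have the highest ratios among risen single-coding-exon genes with at least 3 GGACT and no overlapping expressed locus. The examples were thus chosen for the letters and do not represent the largest rises. Lingo3 and B3galt4 hold 1 and 2 matches, and Lsm10 and Ntf3 hold 0. Each sequence is on the GRCm38 strand of the gene, with GGACT in capitals.
Fkbpl (chr17:34646267-34646296, plus strand, 16 bases before the last coding base): agggctggctcggGGACTgcgcaagatgtt
Hpdl (chr4:116820469-116820498, minus strand, 331 bases before): cctgcagcacgtaGGACTgtacactcctaa
Mblac1 (chr5:138194996-138195025, plus strand, 164 bases before): gacttggtgacgaGGACTcctggcaggccc
Lrrn2 (chr1:132939026-132939055, plus strand, 345 bases before): tgtgtttgggccaGGACTaaagaggcctct
Mblac1 and Lrrn2 went from 1.94 to 6.13 FPKM and 0.862 to 2.64 FPKM, Fkbpl and Hpdl as given above.

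The 8 h table allows the same genes to be set beside an earlier time, with its own scaling and the same 0 h libraries, so the ratios of the times are not independent. Among fallen genes, the log2 ratio at 8 h and 24 h was -0.76 and -1.60 for Aldh1a3, -0.19 and -1.12 for Stra6, and -0.07 and -0.66 for Crabp1. It was -0.92 and -2.69 for Slc7a11, and -0.48 and -1.14 for Dkk3. Wnt8b had 0.06 and -0.83, and Dppa5a -0.17 and -0.88. In these genes the later ratio was the larger in size, whereas Trp53cor1 had -2.44 and -2.05, and Iffo2 -2.36 and -2.34. The synthetase median was -0.43 at 8 h and -0.55 at 24 h, that of the retinoic acid genes -0.14 and -0.45, and that of the p53 targets -0.34 and -0.19.

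Among risen genes the order differed from gene to gene. For the m6A genes the ratios at 8 h and 24 h were 1.21 and 0.97 for Ythdf2 and 1.07 and 0.92 for Wtap. Of single-coding-exon genes, Fkbpl had 1.95 and 1.80, Nxt1 1.46 and 1.54, Lsm10 1.41 and 1.66, Eras 1.32 and 1.63, and B3galt4 1.44 and 1.80. For Adm they were 0.57 and 1.49, for Slc2a3 0.12 and 0.75, and for Ier3 -0.03 and 0.81. The median of the HIF targets was 0.05 at 8 h and 0.30 at 24 h, and that of the cholesterol genes 0.39 and 0.34. Differences between the times were not tested.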

How the data were processed

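Tables of 0 h against 24 h, and 0 h against 8 h for side-by-side values, were used. Per the file headers, the authors deposited FPKM values with interval bounds and, in a second table, estimated counts with a variance, each with 1 pooled column per time. Per the submitters' processing notes, Cufflinks 2.2.1 and Cuffdiff were used with mm10. The aligner, annotation, strandedness and interval level are not given in the sources used here. Labels state that each group's duplicates had separate rounds of library preparation, which pooled columns cannot show. Ratios were log2 of FPKM with 0.1 added, which understates changes of low genes, formed within a table (Python 3.11.15, pandas 2.3.3, numpy 2.4.6). Unnamed loci held 1.04% and 1.07% of counts at 0 h and 24 h. The calling rule, tested on simulated data, gives no p-value. Members and gene lists were chosen with earlier results of these data known. Named genes are Mettl3, the 12 highest and 12 lowest called loci, the 8 largest FPKM gains and losses, and called list members up to 4 in each direction, with others given as values. The 12 highest and 12 lowest were taken among called loci whose estimated counts moved the same way by at least 1.5-fold. The lower of their 2 counts had to be at least 10 or at most 3. GENCODE M21 names matched 99.2% of loci, and 99.9% of these overlapped the locus. RefSeq supplied promoters. Alternatives changed the pseudocount, fold, interval, unit, minima, centring and overlap. A few list members are counted in their lists but not reported here individually.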

Additional observations from a re-analysis of the deposited data

How the results depend on the processing

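No paired analysis was possible because both replicates of a time are pooled into 1 column, and for the same reason no replicate could be left out. The number of risen loci was 147 with a fold of 2 and 1028 with a 1.5-fold criterion without intervals, and the number of fallen loci was 64 and 557 in those settings. Estimated counts in place of FPKM gave 278 fallen and 644 risen loci. Risen loci made up between 64.9% and 74.9% of changed loci over the settings tried. Of 149 called list members and other named genes, none changed sign, and 97 lost their call in at least 1 setting, 94 of them with a fold of 2. Outside these, the called loci Tmem200a, 2610008E11Rik and Tmem63a had counts in the other direction. Of 67 list medians, 10 changed sign in at least 1 setting. With estimated counts these were neurogenesis (0.057), heat shock (-0.0524), DNA methylation (0.011) and Wnt genes (-0.0161). With at least 5 FPKM they were POU factors (-0.14), neurogenesis (0.567), apoptosis (0.0001066) and Wnt genes (-0.011). The Wnt median was also below 0 with at least 50 counts (-0.0005638) and with ratios centred on their median (-0.006178). Without overlapping loci they were G1 cyclins and inhibitors (0.0211, from -0.13), glycolysis (0.0642), CCR4-NOT (0.0132) and TAF subunits (-0.004442). The cause of these changes was not tested. Pooling and the unknown interval level limit how firmly any single gene can be read.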
